A study of Mus musculus with 19 samples.

Results

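The RNA levels of 9 genes that encode parts of the alveolar basement membrane were followed across sorted alveolar type II (AT2) cells and lung tissue of mice. The genes were the type IV collagen chains Col4a1, Col4a2, Col4a3 and Col4a4, the laminin chains Lama3, Lama5 and Lamb3, the nidogen Nid1 and the nephronectin gene Npnt. They were chosen by name, with earlier results of these data known, and were read by their Entrez Gene IDs. They are 9 of the 36528 gene IDs in each table of counts. All 9 passed the filter on low counts in every comparison.

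The study asked for genes that depend on the ETS family transcription factor Etv5, by sequencing polyadenylated RNA in 19 libraries. The groups were 5 AT2 libraries labelled Etv5KO, 4 AT2 control libraries, 5 lung libraries labelled Etv5KO and 5 lung control libraries. Mice of every group carried SpcCreERT2, a tamoxifen-switched Cre recombinase made where the surfactant protein C promoter is active, and the RosatdTomato reporter of Cre activity. The Etv5 locus of mice labelled Etv5KO had a knockout allele opposite a loxP allele, so cells without Cre activity kept 1 working copy. Every mouse, controls included, had tamoxifen at 100 mg/kg over 5 days and then 5 days without it. AT2 cells were sorted as EpCAM+, tdTomato+, CD45- and CD31-, while lung tissue was not sorted. The series design lists 5 mice for each genotype, the fifth AT2 control library was not analysed here, and the age of the mice is not given in the sources used here. Nothing in the labels ties an AT2 library to a lung library of the same mouse.

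A basement membrane is a thin sheet of matrix under an epithelium, and in the alveolus the sheet under thin AT1 cells is largely shared with the capillary endothelium. It holds a network of type IV collagen and a network of laminin. Each laminin is a trimer of an alpha, a beta and a gamma chain, and nidogen can bind both networks. Col4a1 and Col4a2 assemble together in nearly all basement membranes, while Col4a3 and Col4a4 assemble with Col4a5 in a few, those of the lung alveolus and the kidney glomerulus among them. Lama3 and Lamb3 encode chains of an epithelial laminin, and Lama5 encodes the main alpha chain of many mature epithelia. Nephronectin is a matrix ligand of the integrin made of Itga8 and Itgb1.

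Total counts lay between 17426415 and 26722625 in the AT2 libraries labelled Etv5KO and between 20279607 and 28671262 in AT2 controls. In lung they lay between 20332410 and 22478603 in the libraries labelled Etv5KO and between 14971793 and 26989453 in controls. Etv5 itself was no lower under the Etv5KO label. Levels are given in CPM, edgeR's count scaled by library size after TMM adjustment over the 19 libraries. Etv5 averaged 714 ± 58.4 CPM (SD, n = 5) in the AT2 libraries labelled Etv5KO. In AT2 controls it averaged 667 ± 36.1 CPM (n = 4). Its log2 fold change was 0.10, with an adjusted p of 0.505 by edgeR. In lung it averaged 113 ± 10.8 CPM in the libraries labelled Etv5KO and 104 ± 7.20 CPM in controls (SD, n = 5 each), a log2 fold change of 0.12 with an adjusted p of 0.978. Because reads were counted over the whole gene and the labels do not name the deleted exons, Etv5 counts leave the genotype label unchecked, and each direction given here goes by that label. The AT2 label was checked with 10 AT2 markers: all 10 were higher in AT2 controls than in lung controls. The summed level of 12 endothelial markers was 133 to 224 CPM in the AT2 libraries labelled Etv5KO and 126 to 187 CPM in AT2 controls, against 5326 to 7947 CPM in the lung libraries labelled Etv5KO and 6470 to 8447 CPM in lung controls.

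Col4a1 and Col4a2 lie head to head on mouse chromosome 8 and start close to each other on opposite strands. Their promoter windows are shown because these were the genes of the set that moved with the genotype label in AT2 cells, and the Col4a4 window is shown beside them because Col4a4, which lies head to head with Col4a3 on chromosome 1, belongs to the other collagen IV network. Each window runs from 250 bases before to 50 bases after the start site in RefSeq on GRCm38.p6, 5′ to 3′ on the strand of the gene. The counts were made on mm9, so these coordinates belong to the RefSeq table and not to the count tables. Capitals mark matches on either strand to AGGAAG or CGGAAG, which hold the core of ETS family sites, to GGGCGG, the GC box, to CCAAT, or to TATAAA. The Col4a1 window is chr8:11312777-11313076 on the minus strand, the Col4a2 window is chr8:11312555-11312854 on the plus strand, and the Col4a4 window is chr1:82586800-82587099 on the minus strand.
Col4a1: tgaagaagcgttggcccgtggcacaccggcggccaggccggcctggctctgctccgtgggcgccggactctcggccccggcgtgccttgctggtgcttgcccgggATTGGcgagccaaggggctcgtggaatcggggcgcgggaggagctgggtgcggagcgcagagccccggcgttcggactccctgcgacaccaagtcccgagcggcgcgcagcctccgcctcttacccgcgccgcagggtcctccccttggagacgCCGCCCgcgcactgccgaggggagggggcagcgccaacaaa
Col4a2: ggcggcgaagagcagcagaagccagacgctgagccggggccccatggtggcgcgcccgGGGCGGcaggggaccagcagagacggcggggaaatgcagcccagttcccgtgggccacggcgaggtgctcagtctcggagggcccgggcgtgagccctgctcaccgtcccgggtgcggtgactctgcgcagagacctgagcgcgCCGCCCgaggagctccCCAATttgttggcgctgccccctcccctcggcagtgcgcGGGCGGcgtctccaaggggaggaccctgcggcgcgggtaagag
Col4a4: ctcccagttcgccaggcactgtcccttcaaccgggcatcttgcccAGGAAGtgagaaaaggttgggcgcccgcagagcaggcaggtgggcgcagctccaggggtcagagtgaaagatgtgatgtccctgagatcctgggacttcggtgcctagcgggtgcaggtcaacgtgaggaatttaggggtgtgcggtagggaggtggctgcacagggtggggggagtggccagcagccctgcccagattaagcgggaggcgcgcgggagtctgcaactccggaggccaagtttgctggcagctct
The Col4a1 and Col4a2 windows share 78 bases. The GC box had 1 match in the Col4a1 window and 3 in the Col4a2 window, each window had 1 match to CCAAT, and neither had a match to AGGAAG, to the motif CGGAAG or to TATAAA. The GC box of the Col4a1 window lies in the shared bases and is the same site as 1 of those in the Col4a2 window. The Col4a4 window had 1 match to AGGAAG and none to the other motifs. Of 32851 mouse promoter windows of the same length, 35.4% held AGGAAG, 16.9% CGGAAG, 35.7% GGGCGG, 37.4% CCAAT and 13.6% TATAAA. A match describes letters in the window and not a bound site, and a window without one says nothing of the factor.

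In sorted AT2 cells, Col4a1 and Col4a2, the chains of the collagen IV network found in nearly all basement membranes, were lower in the libraries labelled Etv5KO. They were the members that passed the test, 2 of 9, both lower, where 9.87% of 14939 genes tested passed in either direction and 4.84% passed as lower. The other 7 members did not pass. The median log2 fold change of the 9 was 0.12, against -0.01 over all genes tested. The members were chosen with earlier results of these data known, so the shares give a scale and no test. A gene passed when its adjusted p was under 0.05 in edgeR's quasi-likelihood test, with p-values adjusted by Benjamini-Hochberg over all genes of the comparison. The series design lists 5 mice for each genotype, though the labels do not tie a library to a mouse. The p-values measure the spread between these libraries, which is a spread between mice only if each library is of its own mouse.

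Col4a1 was at 490.0, 644, 619, 537 and 622 CPM in the 5 AT2 libraries labelled Etv5KO, against 771, 950, 795 and 809 CPM in the 4 AT2 controls. The groups did not overlap: the highest library labelled Etv5KO stood below the lowest control. Such separation was seen for 12.5% of all genes tested, and with the libraries labelled Etv5KO lower for 6.37%. Its log2 fold change came to -0.51 (SE 0.10, 95% interval -0.73 to -0.29), with an adjusted p of 0.00731 by edgeR.

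Col4a2 was at 375, 553, 499, 418 and 473 CPM in the AT2 libraries labelled Etv5KO, against 570, 732, 595 and 626 CPM in AT2 controls. Here too the groups did not overlap, though the gap was narrow. Its log2 fold change came to -0.44 (SE 0.12, 95% interval -0.69 to -0.19), with an adjusted p of 0.0338 by edgeR. This call rested on the scaling and on single libraries: scaled by library size alone, the log2 fold change was -0.38 with an adjusted p of 0.130, and it also missed the threshold without AT2 library 1, 4 or 5 labelled Etv5KO (adjusted p 0.0661, 0.0816 and 0.0632) or without AT2 control 2, 3 or 4 (0.0697, 0.0582 and 0.0707). Col4a1 passed in each of these refits, with log2 fold changes from -0.55 to -0.43 over 15 alternatives.

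Both chains stayed near a fixed ratio from library to library. Per gene length, in the authors' RPKM divided by a size factor for each library (nRPKM), the level of Col4a1 over that of Col4a2 was 1.09 ± 0.05 in the AT2 libraries labelled Etv5KO and 1.14 ± 0.03 in AT2 controls. In lung the same ratio was 1.19 ± 0.08 in the libraries labelled Etv5KO and 1.2 ± 0.05 in controls. Over all 19 libraries, each was the gene of nearest pattern to the other, with a root mean square difference of 0.08 on the log2 scale after each gene was centred on its own mean, among 12244 genes that averaged 5 CPM or more. The next nearest genes were Poglut2 and Tmem132a at 0.17 for Col4a1, and Poglut2 and Gpsm1 at 0.18 for Col4a2. Both genes overlap at their starts in the RefSeq annotation and whether the counting used strand is not given, so reads from the shared 85 bases cannot be assigned with certainty.

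Markers of other cells in the AT2 libraries are set beside the collagen values. Summed mesenchymal markers were at 62.9 to 112 CPM in the AT2 libraries labelled Etv5KO and 53.4 to 83.1 CPM in AT2 controls, and 0 of the 12 passed the test by edgeR, with 3 higher and 0 lower at an unadjusted p under 0.05, and 0 by DESeq2. None of the 12 mesenchymal and 12 endothelial markers was at 0 in every AT2 library, and of the endothelial markers only Car4 passed, as higher. Median log2 fold changes were 0.43 for the mesenchymal and 0.28 for the endothelial markers, against -0.01 over all genes tested. Summed AT1 markers were at 5686 to 6245 CPM in the AT2 libraries labelled Etv5KO, against 4136 to 4960 CPM in AT2 controls. Ager, Emp2, Gprc5a and Aqp5 made the largest part of this sum, with 2241, 760, 661 and 609 CPM in AT2 controls. They stood at 140%, 55.9%, 130% and 261% of their lung control levels, so the sum is no measure of AT1 cells alone. Of the 12 AT1 markers, 6 rose and 1, Aqp5, fell, where 5.03% of all genes tested rose and 4.84% fell. The same shares stand beside the counts of the other marker lists here. Summed AT2 markers were at 140541 to 179630 CPM in the AT2 libraries labelled Etv5KO and 154489 to 230884 CPM in AT2 controls, and 4 of the 10 fell. Summed airway markers were at 620.1 to 941 CPM in the AT2 libraries labelled Etv5KO and 317 to 720 CPM in AT2 controls. Of the 6 listed, 4 could be tested, and 1, the club cell gene Cyp2f2, rose (log2 fold change 1.66, adjusted p = 6.37e-05 by edgeR). The 4 mesothelial markers summed to 15.1 to 24.1 CPM in the AT2 libraries labelled Etv5KO and 8.19 to 14.9 CPM in AT2 controls, without overlap. Of the 3 mesothelial markers tested, Msln rose (log2 fold change 0.82, adjusted p = 0.0463), a call lost in 9 of 15 alternatives, among them leaving out library 1, 2 or 3 labelled Etv5KO or any 1 control (largest adjusted p of these 0.126). The 8 blood cell markers summed to 48.7 to 58.9 CPM in the AT2 libraries labelled Etv5KO and 38.6 to 66.9 CPM in AT2 controls. Of the 7 tested, 1 passed, the macrophage gene Cd68, which rose (log2 fold change 0.65, adjusted p = 0.00767 by edgeR). At an unadjusted p under 0.05 by edgeR, 2 were higher, Cd68 and Mrc1, and 2 lower, Csf1r and Marco. Log2 fold changes were -0.67 for Csf1r and -0.83 for Marco. DESeq2 called 1 blood cell marker higher and 1 lower. The part of AT1, AT2, airway, mesothelial or blood cell marker levels in the collagen result was not tested. In bulk samples, fewer cells of a type and less RNA per cell cannot be told apart.

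Col4a3 and Col4a4, of the other collagen IV network, did not pass the test. Col4a3 was at 67.7, 85.6, 102, 76.1 and 74.5 CPM in the AT2 libraries labelled Etv5KO, against 50.3, 78.9, 56.3 and 93.8 CPM in AT2 controls, and the groups overlapped over most of their range. Its log2 fold change was 0.23 (SE 0.18, 95% interval -0.17 to 0.62), with an adjusted p of 0.523 by edgeR. Col4a4 was at 61.5, 82.7, 104, 64.8 and 68.3 CPM in the AT2 libraries labelled Etv5KO, against 56.5, 65.9, 55.6 and 74.2 CPM in AT2 controls, again with overlap. For Col4a4 the log2 fold change was 0.28, with a 95% interval of -0.05 to 0.61 (SE 0.15) and an adjusted p of 0.314. Col4a5, the chain that completes this network, averaged 55.1 ± 5.88 CPM in the AT2 libraries labelled Etv5KO and 54.8 ± 2.14 CPM in AT2 controls, with an adjusted p of 0.954.

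The balance between the networks can be described per gene length. The summed nRPKM of Col4a1 and Col4a2 was 7.94 ± 0.98 times that of Col4a3 and Col4a4 in the AT2 libraries labelled Etv5KO (range 6.38 to 9.02) and 13.3 ± 2.16 times in AT2 controls (range 10.1 to 14.7). The ranges did not overlap. In lung the ratio was 6.66 ± 1.54 in the libraries labelled Etv5KO and 7.90 ± 1.63 in controls, with overlapping ranges of 4.64 to 8.42 and 6.41 to 10.7. The ratio was formed after the values of its members were seen and was given no test.

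Laminin chains showed no call in AT2 cells. Lama3 was at 52.8, 72.2, 53.5, 53.0 and 62.1 CPM in the AT2 libraries labelled Etv5KO, against 47.5, 66.9, 48.5 and 59.1 CPM in AT2 controls, and its log2 fold change was 0.09 (SE 0.13, 95% interval -0.19 to 0.36, adjusted p = 0.765 by edgeR). Lamb3, its beta partner, was at 292, 417, 284, 307 and 322 CPM in the AT2 libraries labelled Etv5KO, against 334, 440.2, 369 and 288 CPM in AT2 controls, and its log2 fold change was -0.14 (SE 0.14, 95% interval -0.43 to 0.16, adjusted p = 0.62). The groups overlapped for both. Lama5 was at 277, 406, 337, 274 and 355 CPM in the AT2 libraries labelled Etv5KO, against 243, 391, 274 and 266 CPM in AT2 controls, and its log2 fold change was 0.17 (SE 0.15, 95% interval -0.16 to 0.51, adjusted p = 0.579). Lamb2, a beta chain that can pair with Lama5, also missed the threshold, with 258 ± 31.0 CPM in the AT2 libraries labelled Etv5KO and 250 ± 17.4 CPM in AT2 controls (adjusted p = 0.815).

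Nid1 and Npnt complete the set. Nid1 was at 2.69, 5.07, 4.65, 2.36 and 4.75 CPM in the AT2 libraries labelled Etv5KO, against 3.85, 4.28, 2.81 and 2.97 CPM in AT2 controls, which are 41 to 110 counts in the libraries labelled Etv5KO and 50 to 88 counts in controls. For Nid1 the log2 fold change was 0.18 with a wide 95% interval of -0.36 to 0.73 (adjusted p = 0.744 by edgeR). Npnt was at 204, 279, 551, 218 and 266 CPM in the AT2 libraries labelled Etv5KO, against 188, 313, 196 and 425 CPM in AT2 controls. A single library stood high in each group, library 3 labelled Etv5KO and control 4, and the groups overlapped. The log2 fold change of Npnt was 0.12 (SE 0.32, 95% interval -0.57 to 0.81, adjusted p = 0.880), and it was -0.21 without library 3 labelled Etv5KO and 0.06 without both high libraries.

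**Figure D1:**
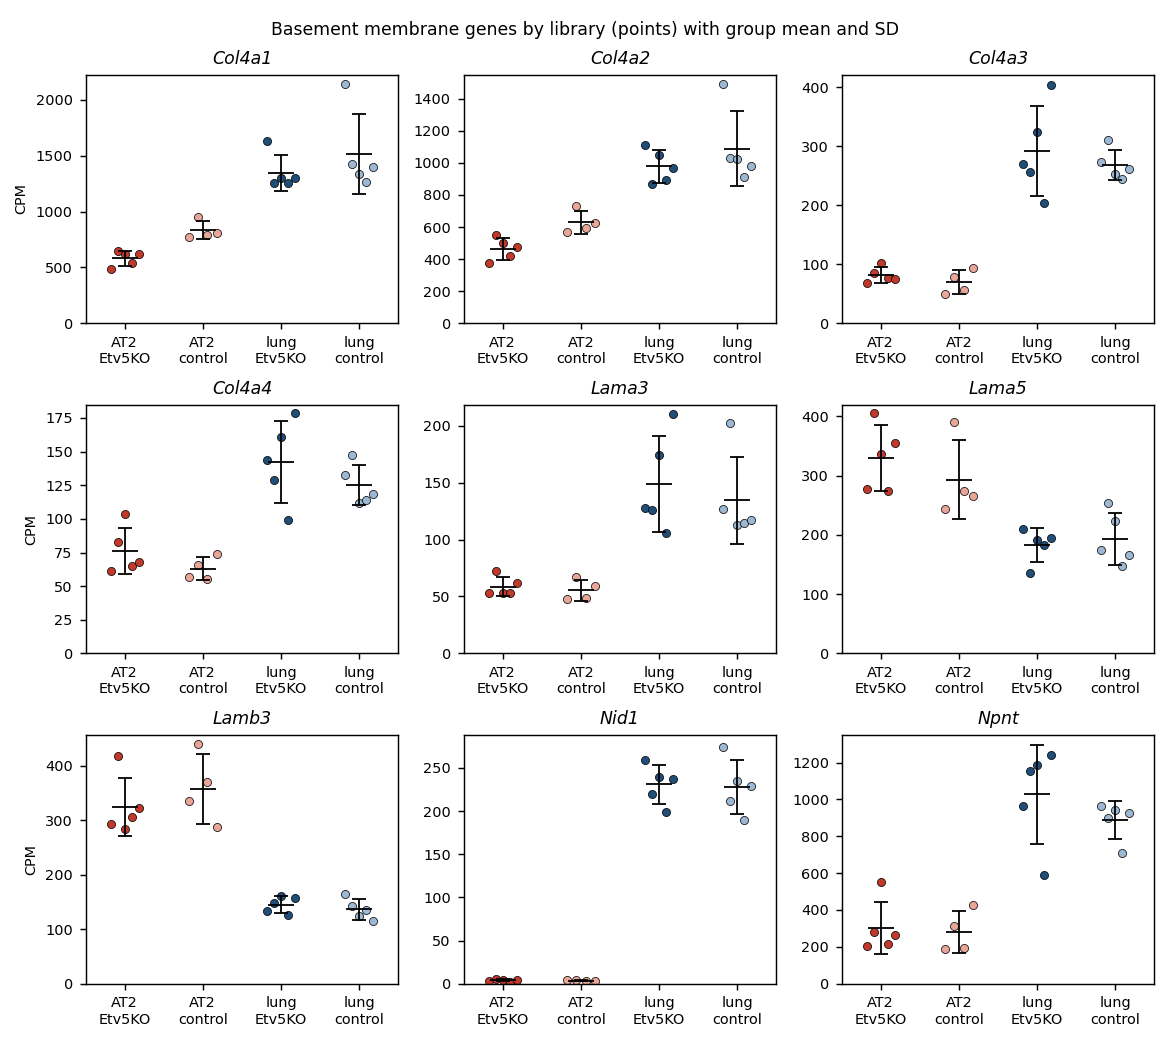
CPM of each of the 9 genes (vertical axes, each from 0) in the 4 groups, with a point for each library and lines for the group mean and SD; Etv5KO stands for the libraries labelled so. For Col4a1 and Col4a2 the points of the AT2 libraries labelled Etv5KO lie below all AT2 control points, and in AT2 cells Nid1 lies at 2.36 to 5.07 CPM near the foot of its panel.

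Lung tissue answers whether the same genes moved with the genotype label when all cells were kept. None of the 9 members passed: 0 of 9 by edgeR's quasi-likelihood test, where 0.415% of 17098 genes passed, 0 of 9 at an unadjusted p under 0.05, where 5.52% of all genes did, and 0 of 9 by DESeq2. Their median log2 fold change was 0.09, against -0.01 over all genes. Log2 fold changes ran from -0.17 for Col4a1 to 0.20 for Npnt, with adjusted p-values of 0.978 to 0.996.

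Col4a1 was at 1635, 1255, 1301, 1253 and 1297 CPM in the lung libraries labelled Etv5KO, against 2145, 1429, 1337, 1266 and 1400.5 CPM in lung controls. Control 1 stood far above the others, and the remaining libraries of both groups overlapped. With all libraries its log2 fold change came to -0.17 (SE 0.14, 95% interval -0.49 to 0.14), and without control 1 to -0.02. Col4a2 behaved alike, with 1110.0, 871, 1050, 891 and 965 CPM in the lung libraries labelled Etv5KO against 1494, 1033, 1026, 911 and 977 CPM in lung controls. For it the log2 fold change came to -0.16 (SE 0.13, 95% interval -0.45 to 0.13), or -0.02 when control 1 was left out. In that control the summed mesenchymal markers were at 4719 CPM, against 2685 to 3326 CPM in the other lung controls, and the part of this in the collagen values was not tested.

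Npnt was at 962, 1153, 1187, 590 and 1243 CPM in the lung libraries labelled Etv5KO, against 963, 901, 944, 710.4 and 924 CPM in lung controls. Library 4 labelled Etv5KO was the lowest of all, and the log2 fold change, 0.20 (SE 0.18) over all libraries, was 0.35 without it (adjusted p = 0.331 by edgeR). That library was also the lowest of its group for Col4a3 at 204 CPM, for Col4a4 at 99.4 CPM, for Lama3 at 106 CPM, for Lamb3 at 127 CPM and for Nid1 at 199 CPM. Library 5 labelled Etv5KO was the highest of its group for Npnt, for Col4a3 at 404 CPM, for Col4a4 at 179 CPM and for Lama3 at 210.1 CPM. Summed AT1 markers were lowest in library 4, at 7235 CPM, and highest in library 5, at 9597 CPM, while summed mesenchymal markers were lowest in library 4, at 2648 CPM. Summed mesothelial markers were also lowest in library 4, at 143 CPM. The summed AT2, endothelial, airway and blood cell markers were instead highest of the group in library 4, at 26848, 7947, 23522 and 857 CPM. The part of these marker levels in the spread of the members was not tested.

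For the other members in lung the groups overlapped as well. Col4a3 averaged 292 ± 76.1 CPM in the lung libraries labelled Etv5KO and 269 ± 25.7 CPM in lung controls, and Col4a4 averaged 142 ± 30.4 CPM in the libraries labelled Etv5KO and 125 ± 15.02 CPM in controls. Lama3 averaged 149 ± 42.5 CPM in the libraries labelled Etv5KO and 134 ± 38.1 CPM in controls, Lama5 183 ± 27.9 CPM in the libraries labelled Etv5KO and 193 ± 43.7 CPM in controls, and Lamb3 145 ± 14.7 CPM in the libraries labelled Etv5KO and 136 ± 18.7 CPM in controls. Nid1 averaged 231 ± 22.7 CPM in the libraries labelled Etv5KO and 228 ± 31.3 CPM in controls (SD, n = 5 each throughout). Its 95% interval, -0.21 to 0.23 on the log2 scale, was among the narrowest of the set, and those of Lama3 (-0.31 to 0.59) and Npnt (-0.18 to 0.59) were the widest.

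The difference between the genotype effects, AT2 minus lung, was tested as an interaction over all 19 libraries, which shares its libraries with the comparisons above. The test treated all libraries as independent, while AT2 and lung libraries may come from the same mice. By edgeR 0 of 9 members passed, where 1.59% of 17698 genes did, and 0 of 9 passed at an unadjusted p under 0.05, where 9.97% of genes did, or by DESeq2. For Col4a1 the difference was -0.34 on the log2 scale (SE 0.19, 95% interval -0.73 to 0.04, unadjusted p = 0.0781 and adjusted p = 0.590 by edgeR). For Col4a2 it was -0.29 (95% interval -0.68 to 0.10, adjusted p = 0.694). The effect of the label on these collagens was thus called in AT2 cells and not in lung, without the difference between them being called.

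**Figure D2:**
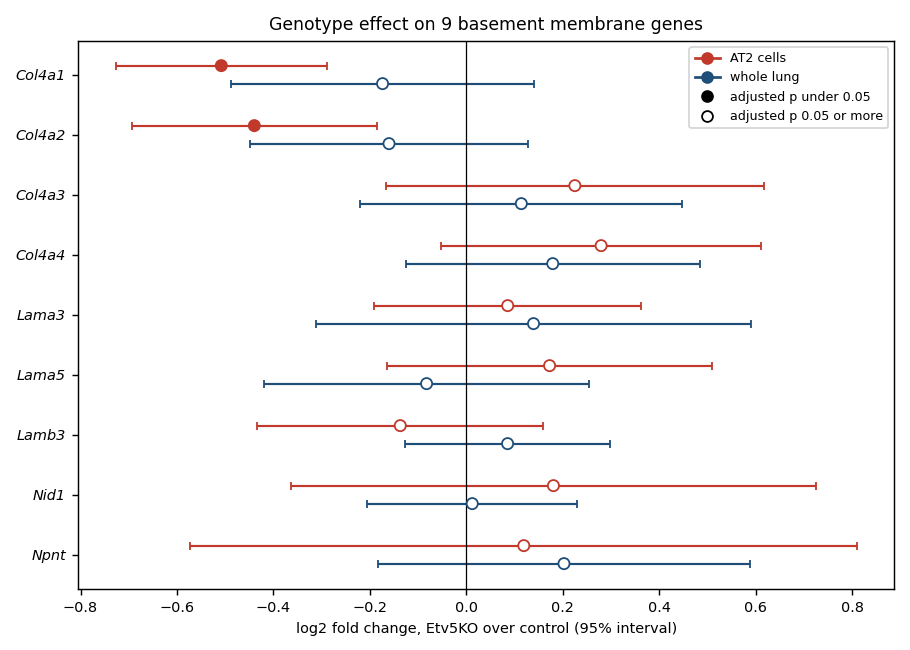
Log2 fold change of each of the 9 genes (horizontal axis), libraries labelled Etv5KO over controls, with its 95% interval, for AT2 cells (red, upper) and lung (blue, lower); filled points have an adjusted p under 0.05. Col4a1 at -0.51 and Col4a2 at -0.44 in AT2 cells are the filled points, and every lung interval spans 0.

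Where the members are expressed was read from AT2 controls against lung controls, with the AT2 control libraries shared with the genotype comparison. This test also treated libraries as independent, though some may share a mouse. All 9 members passed, where 74.5% of 17118 genes did, so a call here says little by itself and the sizes carry the description. By count, 7 were lower, where 38.9% of all genes were, and 2 were higher, where 35.6% were, and for 8 of 9 the groups did not overlap, against 66.5% of all genes. The median log2 fold change was -0.99 for the 9 and -0.01 for all genes.

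Nid1 stood lowest, at 3.48 ± 0.71 CPM in AT2 controls (n = 4) and 228 ± 31.3 CPM in lung controls (n = 5), a log2 fold change of -6.03 (SE 0.16, adjusted p = 4.08e-11 by edgeR). Its AT2 level was 1.53% of its lung level, a share within the range of the 12 mesenchymal markers, 0.93% to 4.27%, and just under that of the 12 endothelial markers, 1.61% to 2.58%. Nid2, the other nidogen, averaged 0.53 ± 0.27 CPM in AT2 controls and 18.2 ± 2.10 CPM in lung controls. What part of the Nid1 reads in AT2 libraries comes from other cells was not tested.

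Lamb3 and Lama5 were the members higher in AT2 cells. Lamb3 averaged 358 ± 64.2 CPM in AT2 controls and 136 ± 18.7 CPM in lung controls, a log2 fold change of 1.39 (SE 0.13, adjusted p = 1.14e-06 by edgeR), and its AT2 level was 262% of its lung level. Lama5 averaged 294 ± 66.4 CPM in AT2 controls and 193 ± 43.7 CPM in lung controls, with the lowest AT2 control at 243 CPM and the highest lung control at 253 CPM, so the groups overlapped. Its log2 fold change was 0.61 (SE 0.18, adjusted p = 0.00816), but 0.21 with an adjusted p of 0.343 when scaled by library size alone. That scaling moved the median of all genes to -0.42. For the 10 AT2 markers the AT2 level was 626% to 965% of the lung level, above both laminins.

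The 6 remaining members were lower in AT2 cells by smaller margins. Col4a1 in AT2 controls was at 54.9% of its lung level, Col4a2 at 58.0%, Col4a4 at 50.4%, Lama3 at 41.3%, Npnt at 31.6% and Col4a3 at 26.0%. Their log2 fold changes ran from -1.94 for Col4a3 (SE 0.17, adjusted p = 6.18e-07 by edgeR) to -0.79 for Col4a2 (SE 0.15, adjusted p = 0.000379). These sizes depend on the processing. Over 14 alternatives the log2 fold change ran from -1.27 to -0.71 for Col4a1, -1.19 to -0.65 for Col4a2 and -2.34 to -1.81 for Col4a3. For Lamb3 it ran from 0.99 to 1.51. The 12 endothelial, 12 mesenchymal and 4 mesothelial markers stood at 0.93% to 5.43% of their lung levels. AT1 markers were mixed, from 3.16% to 261%, with a median of 10.1%. Across the members of each pair, Col4a3 and Col4a4 had similar levels per gene length in AT2 controls, a ratio of 0.99 ± 0.15 of their nRPKM, while in lung controls Col4a3 stood at 1.95 ± 0.07 times Col4a4. Lamb3 stood at 18.2 ± 3.30 times Lama3 per gene length in AT2 controls and at 2.95 ± 0.62 times in lung controls. The Lama3 gene model is 2.79 times as long as that of Lamb3, and the counts do not separate its isoforms, so these ratios depend on the length the authors used.

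**Figure D3:**
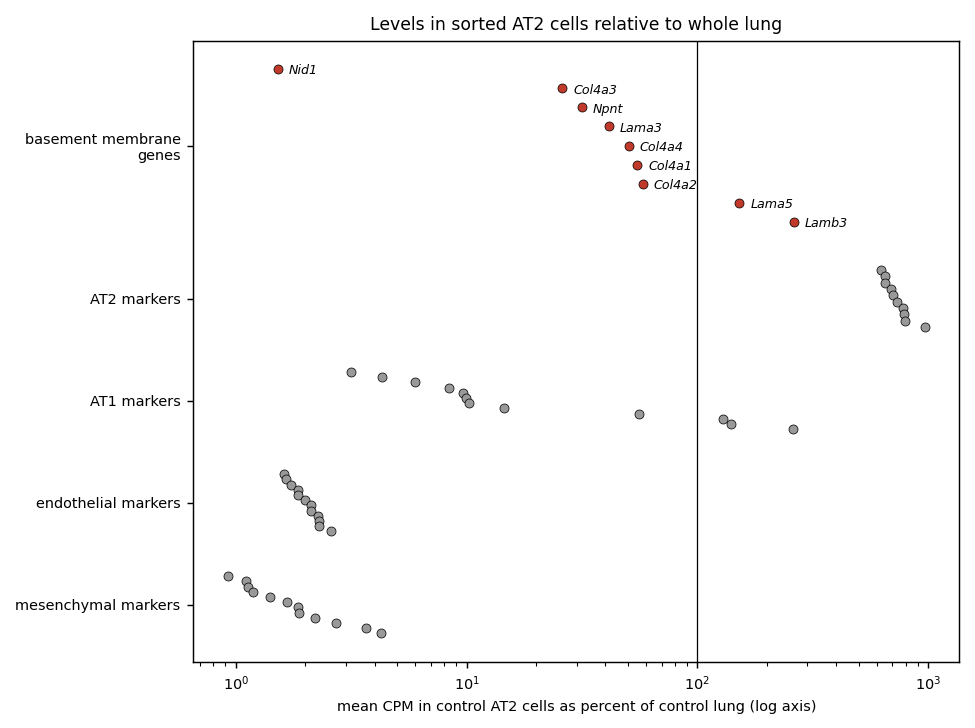
Mean CPM in AT2 controls as a percent of the mean in lung controls (log axis; the vertical line marks equal levels) for the 9 genes and for AT2, AT1, endothelial and mesenchymal markers, with a point for each gene. Nid1 at 1.53% lies among the mesenchymal markers and just below the endothelial ones, 6 members lie between 26.0% and 58.0%, and Lama5 and Lamb3 lie to the right of the line.

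Levels of different genes were compared per gene length, in nRPKM, with neighbours called apart where their library ranges did not overlap. In the AT2 libraries labelled Etv5KO the order was Col4a1 (74.4 ± 8.45 nRPKM), Lamb3 (71.8 ± 12.2), Col4a2 (68.7 ± 10.4) and Npnt (60.2 ± 27.7), which were not apart, followed by Lama5 (27.0 ± 4.60), Col4a4 (9.29 ± 2.07) with Col4a3 (8.99 ± 1.46), Lama3 (4.65 ± 0.69) and Nid1 (0.61 ± 0.20). In AT2 controls the top 4 were Col4a1 (105 ± 10.2 nRPKM), Col4a2 (92.2 ± 10.5), Lamb3 (78.0 ± 14.04) and Npnt (54.9 ± 21.8), each overlapping the next. Below them stood Lama5 (23.7 ± 5.39 nRPKM), Col4a3 (7.61 ± 2.19) with Col4a4 (7.58 ± 1.05), Lama3 (4.33 ± 0.72) and Nid1 (0.54 ± 0.11). Between neighbours the AT2 groups thus gave the same steps, and only neighbours with overlapping ranges changed places. Among genes that were not neighbours the AT2 groups differed. In AT2 controls the lowest Col4a1 library (98.1 nRPKM) stood above the highest of Lamb3 (96.2) and Npnt (82.9). The lowest Col4a2 control (84.1 nRPKM) also stood above the highest Npnt control. In the AT2 libraries labelled Etv5KO these ranges overlapped.

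In lung the order differed. Npnt (207 ± 53.8 nRPKM), Col4a1 (175 ± 20.9) and Col4a2 (147 ± 15.02) led in the libraries labelled Etv5KO, apart from a middle group of Nid1 (37.0 ± 3.59), Col4a3 (32.9 ± 8.69) and Lamb3 (32.7 ± 3.28) and a lower group of Col4a4 (17.7 ± 3.8), Lama5 (15.3 ± 2.34) and Lama3 (12.0 ± 3.46). Lung controls gave the same 3 groups, led by Col4a1 (196 ± 45.0 nRPKM), Npnt (179 ± 20.2) and Col4a2 (164 ± 33.8), then Nid1 (36.5 ± 4.83), Lamb3 (30.6 ± 4.01) and Col4a3 (30.2 ± 2.84), then Lama5 (16.1 ± 3.63), Col4a4 (15.5 ± 1.82) and Lama3 (10.8 ± 3.06). Within each group the ranges overlapped from one gene to the next.

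**Figure D4:**
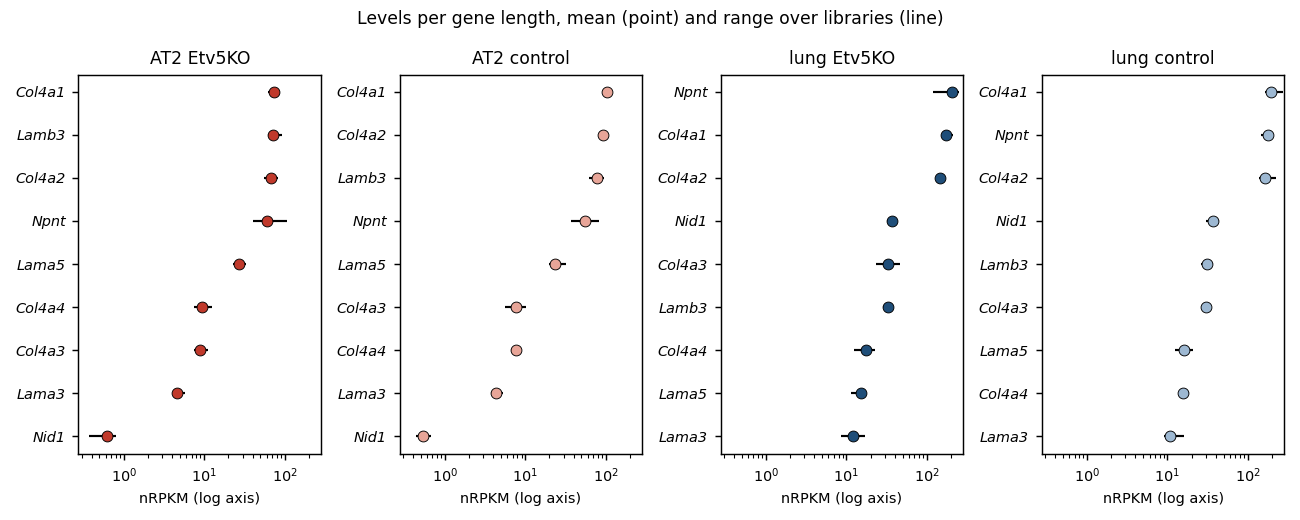
Level per gene length in nRPKM (log axis) of the 9 genes in each group, ordered by mean, with a point for the mean and a line for the range over libraries; Etv5KO stands for the libraries labelled so. Nid1 is last in both AT2 groups, at 0.61 and 0.54 nRPKM, and heads the middle group of genes in lung.

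Other basement membrane genes place the members, in lists also chosen with earlier results of these data known. Of 22 further components, 19 could be tested in AT2 cells, and 2 rose, where 5.03% of all genes did, and 0 fell in the libraries labelled Etv5KO, with a median log2 fold change of 0.13. Ntn4, a netrin that binds laminin, averaged 12.8 ± 2.18 CPM in the AT2 libraries labelled Etv5KO and 5.13 ± 0.64 CPM in AT2 controls (log2 fold change 1.33, SE 0.15, adjusted p = 0.000184 by edgeR). Sparc, a collagen-binding matrix protein, averaged 678 ± 62.3 CPM in the AT2 libraries labelled Etv5KO and 496 ± 47.1 CPM in AT2 controls (log2 fold change 0.46, adjusted p = 0.00818). The Sparc call was lost in 1 of 15 alternatives (largest adjusted p 0.0505 by edgeR or DESeq2). Egfl6, an epidermal growth factor-like matrix protein, averaged 817 ± 45.3 CPM in the AT2 libraries labelled Etv5KO and 855 ± 51.2 CPM in AT2 controls and did not pass (adjusted p = 0.705). It was far higher in AT2 controls than in lung controls, where it averaged 116 ± 7.78 CPM (log2 fold change 2.88, adjusted p = 4.98e-11). Lama4 and Lamb1, laminin chains of vessels and mesenchyme, were lower in AT2 controls than in lung controls, with log2 fold changes of -5.83 and -5.10.

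Among 17 receptors and hemidesmosome genes, 16 could be tested in AT2 cells, 2 rose and 1 fell in the libraries labelled Etv5KO, where 5.03% of all genes rose and 4.84% fell, and the median log2 fold change was 0.17. Plec, which encodes the linker plectin, averaged 232 ± 21.0 CPM in the AT2 libraries labelled Etv5KO and 156 ± 11.01 CPM in AT2 controls (log2 fold change 0.58, adjusted p = 0.00106 by edgeR). Dag1, the laminin receptor dystroglycan, averaged 904 ± 49.2 CPM in the AT2 libraries labelled Etv5KO and 740 ± 19.01 CPM in AT2 controls (log2 fold change 0.29, adjusted p = 0.0172). That call missed the threshold without AT2 control 1 or 3 (largest adjusted p 0.0602). Itga1, a subunit of a collagen-binding integrin, averaged 6.94 ± 1.12 CPM in the AT2 libraries labelled Etv5KO and 12.2 ± 2.81 CPM in AT2 controls (log2 fold change -0.80, adjusted p = 0.0113). The Itga1 call was lost in 1 of 15 alternatives (largest adjusted p 0.0603 by edgeR or DESeq2). Itga8, the nephronectin receptor subunit, averaged only 4.02 ± 1.48 CPM in the AT2 libraries labelled Etv5KO and 2.73 ± 0.32 CPM in AT2 controls, against 290.5 ± 83.9 CPM in the lung libraries labelled Etv5KO and 254 ± 46.8 CPM in lung controls. Itga7 and Sdc1 were higher in AT2 controls than in lung controls, with log2 fold changes of 2.76 and 2.19, and Itga2 was lower, at -5.45.

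Of 14 genes that process or crosslink type IV collagen, 0 rose and 2 fell in AT2 cells, against 5.03% and 4.84% of all genes, with a median log2 fold change of 0.01. P3h2, a prolyl 3-hydroxylase of collagen IV, averaged 8.02 ± 1.84 CPM in the AT2 libraries labelled Etv5KO and 12.9 ± 2.11 CPM in AT2 controls (log2 fold change -0.68, adjusted p = 0.0240 by edgeR). Plod3, a lysyl hydroxylase and glycosyltransferase of collagens, averaged 75.5 ± 3.8 CPM in the AT2 libraries labelled Etv5KO and 90.7 ± 8.52 CPM in AT2 controls (log2 fold change -0.26, adjusted p = 0.0491). Both calls were fragile: that of P3h2 was lost in 6 of 15 alternatives and that of Plod3 in 11 of 15. Pxdn, which encodes peroxidasin, the enzyme that forms the sulfilimine crosslink of collagen IV, was at 8.02 ± 1.05 CPM in the AT2 libraries labelled Etv5KO and 6.73 ± 1.78 CPM in AT2 controls, while it was at 277 ± 28.4 CPM in lung controls. Of 8 matrix proteases and inhibitors, 7 could be tested in AT2 cells, 2 rose and 1 fell, beside the same 5.03% and 4.84% of all genes. Mmp14 averaged 82.6 ± 8.13 CPM in the AT2 libraries labelled Etv5KO and 46.6 ± 5.77 CPM in AT2 controls (log2 fold change 0.83, adjusted p = 0.000364). Timp3, an inhibitor bound to matrix, averaged 291 ± 50.8 CPM in the AT2 libraries labelled Etv5KO and 165 ± 22.2 CPM in AT2 controls (log2 fold change 0.82, adjusted p = 0.00200), and Mmp15 averaged 587 ± 94.2 CPM in the AT2 libraries labelled Etv5KO and 945 ± 51.4 CPM in AT2 controls (log2 fold change -0.68, adjusted p = 0.00211). In lung none of the 22, 17, 14 and 8 genes of these lists passed by edgeR, 0 in each list, and at an unadjusted p under 0.05 only matrix proteases and inhibitors had any, 2 higher and 1 lower, where 5.52% of all genes did in either direction. DESeq2 called 1 of these higher and 1 lower, and 0 in the other 3 lists.

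Patterns nearest to the members over the 19 libraries were taken by the same distance as for the Col4a1 and Col4a2 pair. For Col4a3 they were Tns3, Reps2 and Pdzrn3, at 0.17 to 0.23 on the log2 scale. For Col4a4 they were Rassf8, Numbl and Stard13, at 0.18 to 0.20. Among the laminins, Lama3 lay nearest to Nfib, Tln1 and Agrn, Lama5 to Itpr3, Rbm33 and Abcc10, and Lamb3 to Lrfn4, Large2 and Frk. Nid1 lay nearest to Vstm4, Casp12 and Ism1, at 0.25. Npnt lay nearest to Col4a3, at 0.24, and then to Sema5a and Cygb, at 0.31. These distances mix the difference between AT2 cells and lung with the spread within groups and are a description only.

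Within the AT2 libraries, Npnt, Col4a3 and Col4a4 shared their high libraries. All 3 were highest of their group in library 3 labelled Etv5KO and in control 4. Of the 12 AT1 markers, 2 were the highest and 6 the lowest of their group in library 3 labelled Etv5KO, and 2 were the highest and 4 the lowest in control 4. Their sum was 5686 CPM in library 3 labelled Etv5KO, against 5858 to 6245 CPM in the other 4, and 4625 CPM in control 4, against 4136 to 4960 CPM in the other 3. Of the 12, Hopx, Pdpn and Spock2 are given here, picked after their values were seen. None of them is among the markers that were highest in either library, so they do not stand for the 12. The part of AT1 marker levels in these high libraries was not tested. Hopx was at 44.7 CPM in library 3 labelled Etv5KO, against 59.9 to 81.3 CPM in the other 4, Pdpn at 4.02 CPM, against 4.67 to 9.19 CPM, and Spock2 at 8.63 CPM, against 13.2 to 24.9 CPM. In control 4 Pdpn, at 5.46 CPM, and Spock2, at 13.3 CPM, were the lowest of the controls. Hopx, at 48.7 CPM, was above controls 1 and 2, at 41.4 and 40.5 CPM, and below control 3, at 54.5 CPM. Col4a1 still passed without both libraries, with a log2 fold change of -0.55 and an adjusted p of 0.0268 by edgeR, while Col4a2, at -0.47, had an adjusted p of 0.0928.

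**Figure D5:**
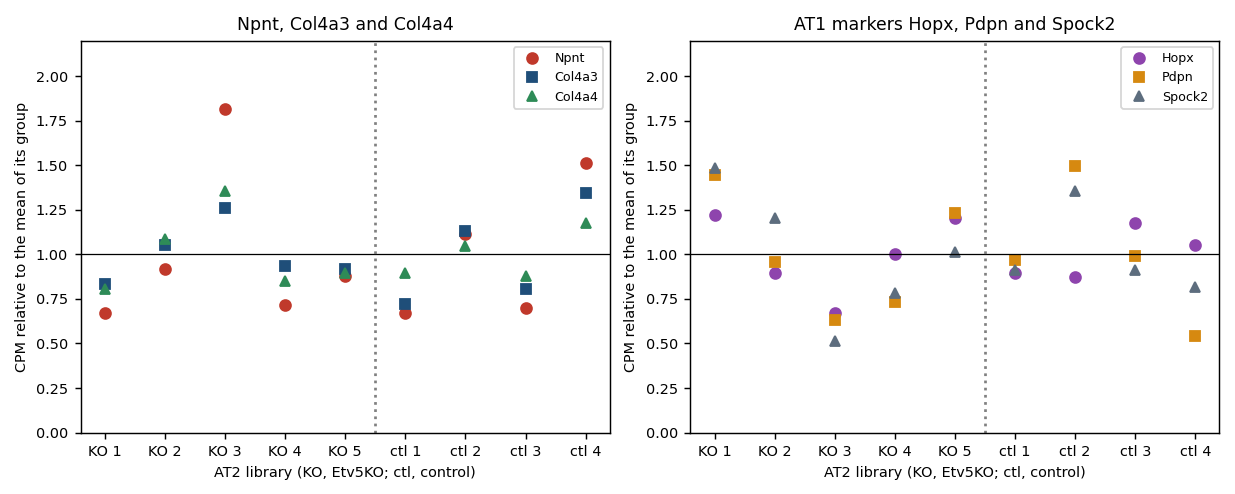
CPM of Npnt, Col4a3 and Col4a4 (left) and of the AT1 markers Hopx, Pdpn and Spock2 (right) in each AT2 library, divided by the mean of its group (vertical axes), with libraries labelled Etv5KO (KO) left of controls (ctl). Library KO 3 and library ctl 4 hold the highest points of their groups on the left, where Npnt reaches 551 and 425 CPM, and on the right KO 3 holds the lowest points of its group. The markers on the right were picked after their values were seen. Of all 12 AT1 markers, 6 were the lowest and 2 the highest of their group in KO 3, and 4 were the lowest and 2 the highest in ctl 4.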

How the data were processed

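Polyadenylated RNA was sequenced in 19 libraries. The deposited counts are of uniquely aligned reads on each gene model, per the file headers, and the other deposited value is an RPKM adjusted by a size factor (nRPKM). GSNAP and genome build mm9 were used, per the submitters' processing notes. Not given in the sources used here are the counting tool, the annotation release, strand use and the lengths behind the RPKM, and genes with near-identical copies lose reads to the unique-alignment rule. No member shared its counts with another gene ID in every library. Of 36528 gene IDs, 31049 were named from RefSeq on GRCm38.p6.

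Counts were tested with edgeR 4.0.16 in R 4.3.3: filterByExpr (minimum count 10, minimum total 15), TMM scaling, and a two-sided quasi-likelihood F test with Benjamini-Hochberg adjustment over all genes of a comparison, at a threshold of 0.05. AT2 cells, lung, and AT2 controls against lung controls were fitted separately, and the interaction over all 19 libraries. CPM levels were scaled by TMM over the 19 libraries. Standard errors and 95% intervals were derived from each F statistic. The test code was tried on simulated counts. Replicates were no duplicates, with a chi-square per degree of freedom of at least 7.30. Library numbers are in accession order.

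The members, gene lists and markers were chosen with earlier results of these data known. Named genes are the members, Etv5, up to 4 called genes with the smallest p of each list, markers a member's result needs, and the 3 genes of nearest pattern to each member. Partners of the members (Col4a5, Lamb2, Nid2, Pxdn), Itga8 and Egfl6 in AT2 cells, the AT1 markers Hopx, Pdpn and Spock2, the blood cell markers Csf1r, Marco and Mrc1 in AT2 cells, and Fkbp5, Rab3c and Sfi1 were named beside the rule, after their values were seen. Alternatives were DESeq2 1.42.0, its size factors in edgeR, library size as the only scaling, no filter on low counts, 1 fit of all libraries and leaving out each library.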

Additional observations from a re-analysis of the deposited data

Results flagged for a closer look

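A single library stood apart from the rest of its group for several members. In lung control 1, Col4a1 was at 2145 CPM, against 1266 to 1429 CPM in the other 4 controls, and Col4a2 at 1494 CPM, against 911 to 1033 CPM. The summed airway markers of the same library were at 13727 CPM, against 23431 to 26689 CPM. In lung library 1 labelled Etv5KO, Col4a1 was at 1635 CPM, against 1253 to 1301 CPM. Lama3 was at 202 CPM in lung control 2, against 112 to 127 CPM. Npnt was at 710.4 CPM in lung control 4, against 901 to 963 CPM. In AT2 cells, Npnt was at 551 CPM in library 3 labelled Etv5KO, against 204 to 279 CPM, and the summed blood cell markers there were at 48.7 CPM, against 56.8 to 58.9 CPM. Lamb3 was at 417 CPM in AT2 library 2 labelled Etv5KO, against 284 to 322 CPM. Etv5 was at 94.4 CPM in lung library 3 labelled Etv5KO, against 112 to 120 CPM, and the summed mesothelial markers were at 143 CPM in lung library 4 labelled Etv5KO, against 305 to 345 CPM. Chance sets a library apart in about 1 in 20 groups, and 11 of 84 groups of values were set apart here.

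The difference between the genotype effects, AT2 minus lung, was called for 4 of the listed genes outside the members, by edgeR's interaction test over all 19 libraries. It was 1.34 on the log2 scale for Ntn4 (adjusted p = 6.23e-05), 1.95 for the airway marker Cyp2f2 (adjusted p = 0.000296), 0.87 for the AT1 marker Clic5 (adjusted p = 0.00117) and 0.45 for the AT1 marker Emp2 (adjusted p = 0.0213). By list these were 1 of 22 other basement membrane proteins, 2 of 12 AT1 markers and 1 of 5 airway markers tested, and no other list had any. Over all 17698 genes tested, 1.59% were called. The lists were chosen with earlier results of these data known.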

How the results depend on the processing

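Col4a1 in AT2 cells passed in 15 of 15 alternatives, with log2 fold changes of -0.55 to -0.43 and adjusted p-values of up to 0.0437 by edgeR or DESeq2. Col4a2 kept its direction in all 15 and passed in 7 of 15. Members called in AT2 cells numbered 1 with library size as the only scaling and 1 to 2 when a library was left out. They numbered 1, among 934 genes called, without both AT2 library 3 labelled Etv5KO and AT2 control 4, an alternative chosen after seeing the data. Leaving out a library gave 0 to 0 members in lung and in the interaction and 9 to 9 in AT2 controls against lung controls. Genes called numbered 1062 to 1587 in AT2 cells, 44 to 80 in lung, 12038 to 12986 in AT2 controls against lung controls and 198 to 319 in the interaction when a library was left out. DESeq2 called 192 genes in lung and 455 in the interaction, and 1 fit of all libraries called 122 in lung. With library size as the only scaling, 894 genes were higher and 482 lower in AT2 cells, against 751 and 723 with TMM, and 3318 were higher and 9484 lower in AT2 controls against lung controls, against 6092 and 6662. In the interaction that split was 157 and 108, against 140 and 142.

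Members that turned direction when a library was left out had passed in none of these fits, and the cause was not tested. Over the libraries left out, log2 fold changes of Npnt in AT2 cells ran from -0.21 to 0.39. In lung they ran from -0.022 to 0.22 for Col4a3, -0.0071 to 0.35 for Lama3, -0.17 to 0.047 for Lama5 and -0.049 to 0.085 for Nid1. In the interaction they ran from -0.0048 to 0.29 for Col4a3, -0.019 to 0.20 for Col4a4, -0.26 to 0.092 for Lama3, -0.39 to 0.20 for Npnt and -0.086 to 0.040 for Etv5, which stood at 0.026 with library size as the only scaling. No paired analysis was possible because the library numbers follow accession order and the labels tie no libraries to a shared mouse. The interval of Npnt in AT2 cells ran from -0.57 to 0.81, and its coefficient of variation was 46.7% in the libraries labelled Etv5KO and 39.9% in controls. Nid1 had 41 to 110 counts in an AT2 library.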

Other observations

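The genes that tracked Npnt most closely within the 9 AT2 libraries were looked up after its high libraries were seen, by the distance between log2 CPM values centred within each group, among 10885 genes. The nearest was Fkbp5, a glucocorticoid-induced co-chaperone of steroid receptors, at a distance of 0.11. Fkbp5 was at 7.88, 12.4, 19.6, 8.35 and 10.4 CPM in the AT2 libraries labelled Etv5KO, against 8.20, 11.2, 8.10 and 16.6 CPM in AT2 controls. Its highest library in each group was the one where Npnt was highest. Rab3c at 0.15 and Sfi1 at 0.17 came next. The member Col4a3 ranked 10 at 0.26. These are descriptions of 9 libraries, picked after the values were seen and given no test.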
